A study of Homo sapiens with 23 samples.

Results

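The Kruppel-like factors (KLF) are a family of zinc finger transcription factors, and 9 of them, KLF2, KLF3, KLF6, KLF9, KLF10, KLF11, KLF12, KLF13 and KLF16, are described here. They were taken by gene symbol from the 28395 genes of the count table, and all 9 passed the filter on low counts that left 16468 genes for testing. KLF2 was known to fall in every line when the set was drawn up. RNA was sequenced from 4 human multiple myeloma lines, H929, MM1S, OPM2 and RPMI-8226, which are malignant plasma cells kept in culture. In each line an IRF4 guide RNA for CRISPR was set against a guide named EV, with all 8 groups given doxycycline for 48 h to switch on the guide. There were 3 libraries per group, except for 2 of MM1S with the EV guide (replicates 2 and 3). A single IRF4 guide and a single time point were used, and neither its sequence nor the meaning of EV was given in the sources used here. IRF4 is a transcription factor on which plasma cells and myeloma cells depend, and the study's title asks how it keeps myeloma cells alive.

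KLF proteins bind GC-rich and CACC sequences in promoters through zinc fingers at their C-terminal end, and their N-terminal parts recruit different partners. KLF2 and KLF6 act largely as activators. KLF3 and KLF12 repress through the corepressor CtBP, and KLF9, KLF10, KLF11, KLF13 and KLF16 bind the SIN3 corepressor. In lymphocytes KLF2 is known for holding cells quiescent and for directing their homing, and its gene is switched on through the kinase ERK5 with MEF2 factors and by FOXO1. In myeloma, earlier work has placed KLF2 and IRF4 in a loop in which each sustains the other's expression.

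The promoters of KLF2, which fell in all 4 lines, and KLF13, the most abundant member per length in EV guide libraries of MM1S, OPM2 and RPMI-8226, are shown from RefSeq (GRCh38.p14) as the 250 bases upstream of the annotated start, 5′ to 3′ on the plus strand. The first is chr19:16324576-16324825 and the other chr15:31326585-31326834. Capitals mark the GC box GGGCGG and the CACC box CACCC on either strand and the MEF2 box, CTA and TAG with any 4 bases between them.
KLF2: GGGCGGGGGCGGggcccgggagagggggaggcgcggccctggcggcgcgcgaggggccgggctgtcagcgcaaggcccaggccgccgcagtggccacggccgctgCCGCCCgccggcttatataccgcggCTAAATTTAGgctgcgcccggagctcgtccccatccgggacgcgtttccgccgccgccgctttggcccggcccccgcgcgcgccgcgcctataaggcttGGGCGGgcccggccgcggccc
KLF13: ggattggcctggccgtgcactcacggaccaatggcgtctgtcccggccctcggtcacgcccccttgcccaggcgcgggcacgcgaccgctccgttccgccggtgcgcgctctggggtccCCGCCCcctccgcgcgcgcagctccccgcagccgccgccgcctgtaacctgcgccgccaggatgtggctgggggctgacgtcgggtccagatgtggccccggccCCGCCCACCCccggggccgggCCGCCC
The KLF2 window held 4 GC boxes and 1 MEF2 box, whose first base lay 120 bases upstream of the start, and no CACC box. The KLF13 window held 3 GC boxes and 1 CACC box, which overlaps a GC box. Of 35116 such windows in the table, 42.6% held a GC box, 54.7% a CACC box and 2.36% a MEF2 box. Of the 7 members with an entry, 6 held a GC box, 3 a CACC box and 3 a MEF2 box (KLF2, KLF11 and KLF12) in at least 1 of their 11 windows. Counted by window, as the shares above are, 7 of the 11 held a GC box, 4 a CACC box and 3 a MEF2 box. KLF3 and KLF10 had no entry. An interferon response element (GAAA and GAAA with 2 bases between them) and an ETS-IRF element (GGAA and GAAA with 2 bases between them), both sequences that IRF proteins can bind, matched none of the 11 windows, against 3.02% and 2.41% of all windows. A match is a description of letters and says nothing of binding.

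Library totals ran from 6907390 to 28486960 counts. Levels are CPM, counts as a rate of the TMM-scaled library total, and each change is the log2 ratio of the IRF4 guide to the EV guide ± SE from edgeR's quasi-likelihood test, with Benjamini-Hochberg adjustment over all 16468 genes and a call at an adjusted p under 0.05. IRF4 itself, the check of the labels, was at 579, 773 and 855 CPM with the IRF4 guide against 2181, 2219 and 2196 CPM with the EV guide in H929, and fell in each line, by 0.66 in OPM2 to 1.58 in H929 on the log2 scale. Its groups overlapped in OPM2, at 890.2 to 1331 CPM against 1319 to 2031 CPM, and in no other line. Plasma cell markers summed to between 4372 and 18599 CPM in IRF4 guide libraries and between 3929 and 17154 CPM in EV guide libraries, a sum led by JCHAIN. On the average 8 of these 9 markers, IRF4 among them, fell and JCHAIN rose (0.43 ± 0.05, adjusted p = 2.16e-09), with a median of -0.54. In OPM2 8 were called lower, in H929 6 lower and 1 higher, in MM1S 4 lower, and RPMI-8226 had 4 lower and 2 higher. Of all genes 25.1% were called lower on the average, 20.2% in OPM2, 26.1% in H929, 15.2% in MM1S and 14.7% in RPMI-8226. The shares called higher were 32.6% on the average, 32.9% in H929 and 19.2% in RPMI-8226. Markers of other cells summed to less than these in every library. T and NK cell markers summed to 1.72 to 126 CPM with the IRF4 guide and 0 to 15.7 CPM with the EV guide, in H929 mostly CD3E (107 against 14.1 CPM on average), myeloid markers to 0.498 to 16.1 CPM against 0.0932 to 3.29 CPM, stromal markers to 0.0400 to 3.35 CPM against 0 to 4.17 CPM, and erythroid markers to 0 to 2.20 CPM against 0.0399 to 3.27 CPM. Epithelial markers reached 94.9 CPM with the IRF4 guide and 128 CPM with the EV guide, as EPCAM in RPMI-8226. T and NK cell markers called higher numbered 5, 1, 2 and 2 of 5 in H929, MM1S, OPM2 and RPMI-8226 (median 4.60 in H929). Myeloid markers called higher numbered 2, 1, 2 and 1 of 3 tested in the same order. Of all genes 32.9%, 19.4%, 23.3% and 19.2% were called higher in these lines. The part of these markers of other cells in the results below was not tested. KLF3 overlaps its antisense gene KLF3-AS1, and KLF9, KLF12 and KLF13 overlap other annotated genes. The sources used here do not say if counting used strand. These overlaps are of whole gene spans, and whether exons are shared was not examined. Where exons are shared, reads of these 4 members and of their partners cannot be told apart. In bulk RNA, fewer cells of a kind and less RNA per cell cannot be told apart. Nothing in the labels says that replicates were separate cultures, and the p-values measure only how these libraries scatter, which may be technical.

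On the average of the 4 lines all 9 members were called, 6 higher (KLF3, KLF6, KLF9, KLF10, KLF12 and KLF13) and 3 lower (KLF2, KLF11 and KLF16), where 57.7% of all genes were called, 32.6% higher and 25.1% lower. The median change of the members was 0.29, against 0.11 for all genes. Among the calls over all genes 56.5% were higher on the average, against 46.2% on the deposited log2 RPKM values, where the median of all genes was -0.03. In H929 the shares were 55.7% and 45.6%, with medians of 0.10 and -0.07. On either scale the 9 members kept their direction on the average and their calls.

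Within lines the members' calls were nearer to those of the whole table. In H929 5 were higher and 1 lower, with 58.9% of genes called (32.9% higher and 26.1% lower), and in MM1S 3 were higher and 2 lower, with 34.6% of genes called (19.4% higher and 15.2% lower). In OPM2 1 was higher and 2 lower, with 43.5% of genes called (23.3% higher and 20.2% lower), and in RPMI-8226 again 1 was higher and 2 lower, with 33.9% of genes called (19.2% higher and 14.7% lower). Without RPMI-8226 IRF4 replicate 3, OPM2 had 5 calls, 3 higher and 2 lower. The libraries of both guides did not overlap for 7, 6, 5 and 4 members in H929, MM1S, OPM2 and RPMI-8226, against 62.1%, 55.4%, 51.9% and 43.2% of all genes. The members' median changes in that order were 0.38, 0.14, 0.00 and -0.10, against 0.10, 0.07, 0.03 and 0.04 for all genes. KLF2 was the only member called the same way in all 4 lines. Of all genes, 3.83% were called lower in all 4 lines and 5.14% higher. For the other 8 members the change differed between lines (F test over the 4 contrasts), where 48.0% of all genes did so.

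**Figure D1:**
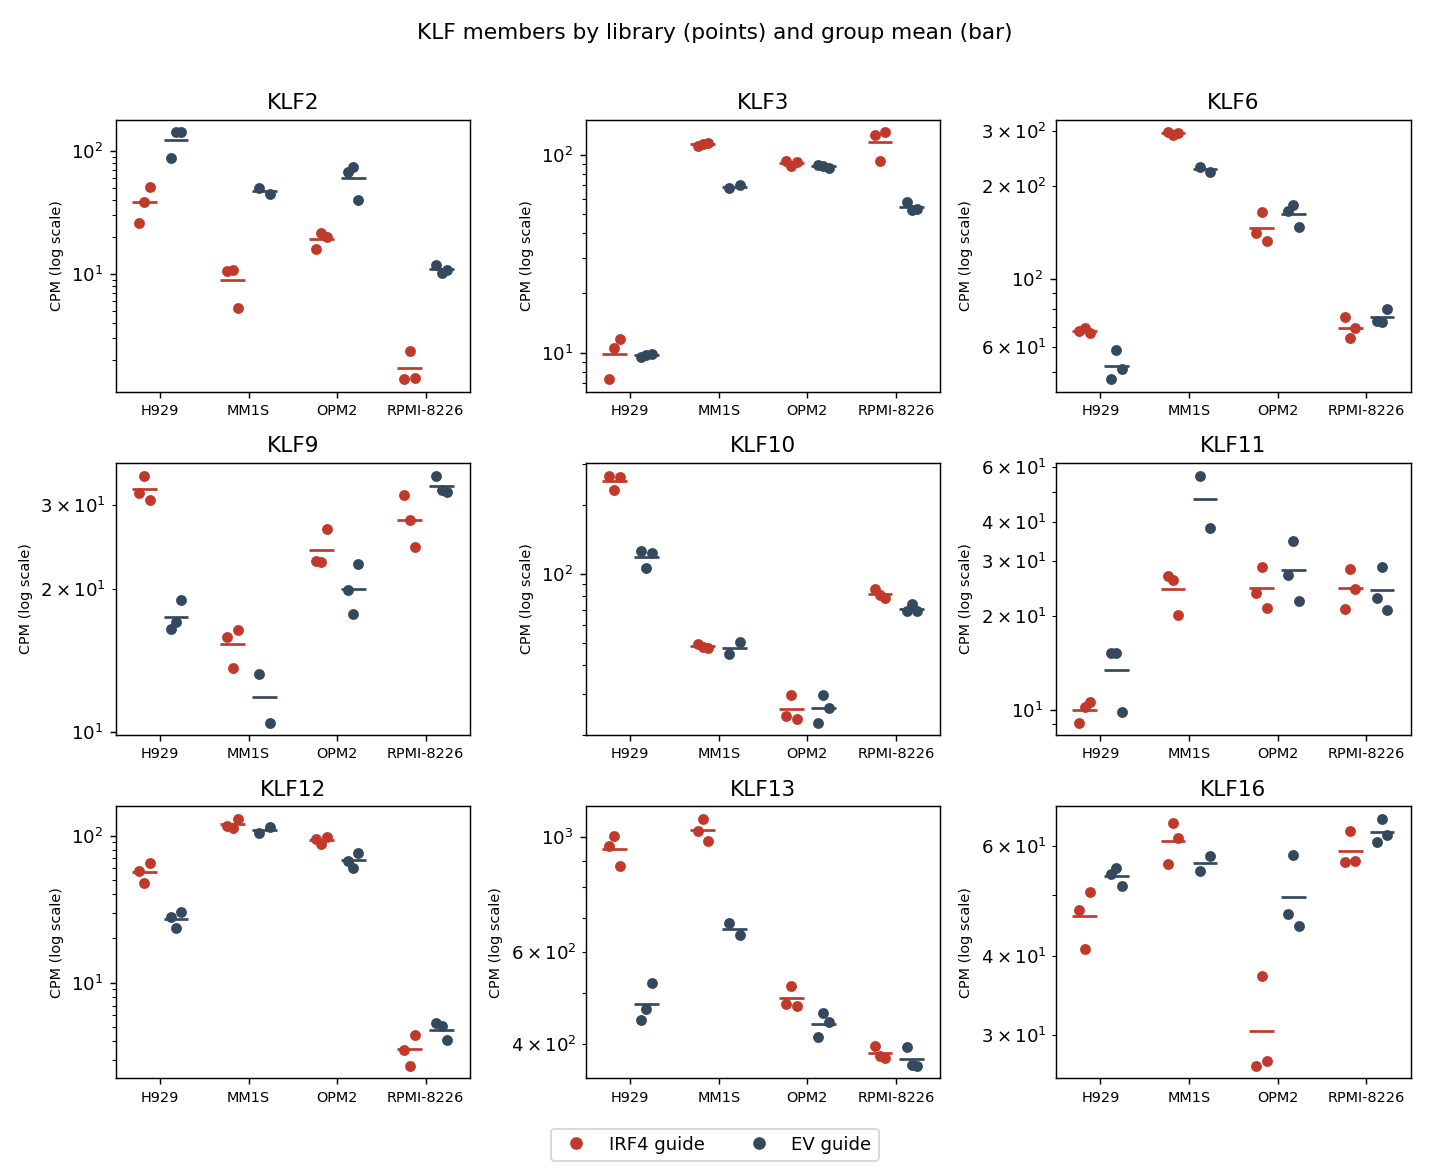
CPM (log scale, its range set separately for each gene) of the 9 members in every library, with the IRF4 guide in red on the left and the EV guide in dark blue on the right for each line. Points are libraries and bars are group means of 3 libraries (2 for MM1S with the EV guide), and KLF2 is lower with the IRF4 guide in each line with no overlap.

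**Figure D2:**
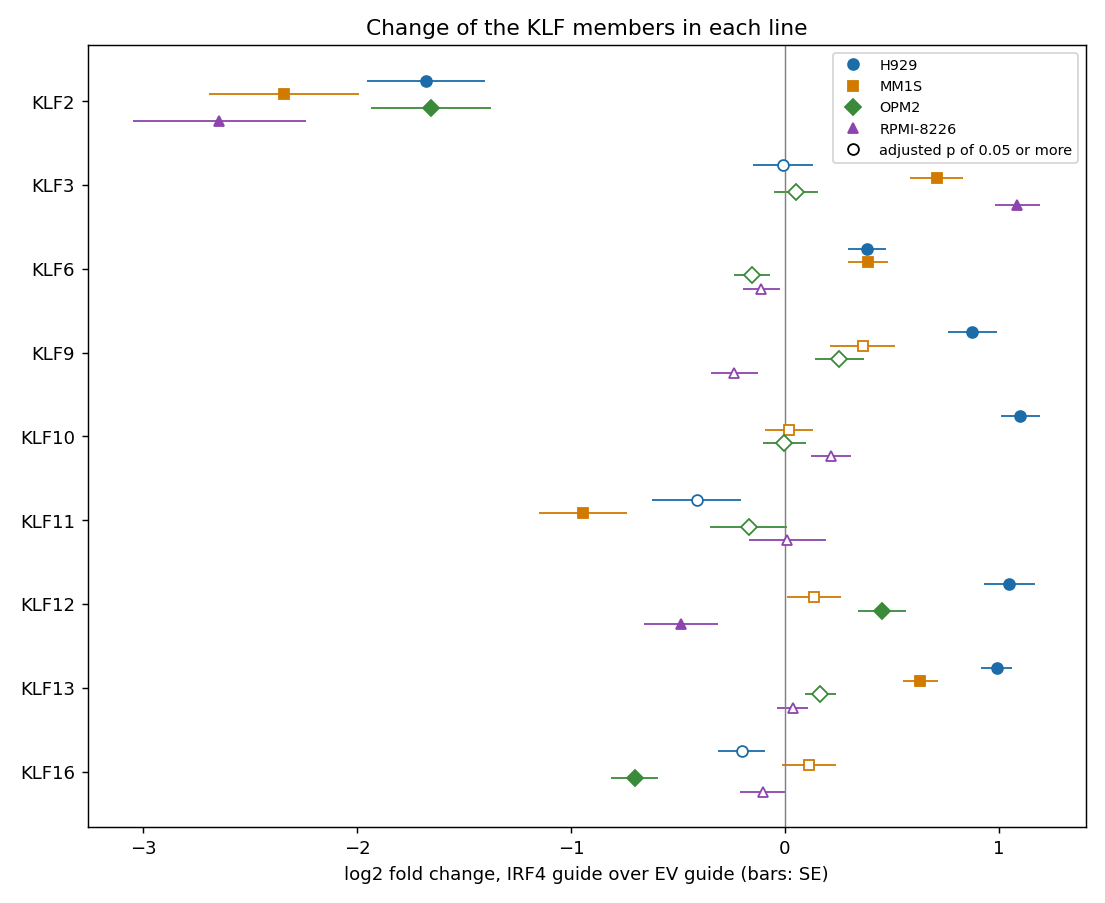
Log2 fold change, IRF4 guide against EV guide, for the 9 members in each line, with bars of 1 SE. Filled marks are calls at an adjusted p under 0.05 and open marks are not, and KLF2 alone is filled in all 4 lines, at -2.64 to -1.65.

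KLF2 (Entrez 10365, chromosome 19, 16324826 to 16328685 on GRCh38.p14), the activator of lymphocyte quiescence whose promoter is shown above, fell in all 4 lines to between 0.160 and 0.318 of its level with the EV guide. In H929 it was at 25.9, 38.9 and 51.3 CPM with the IRF4 guide, against 87.9, 142 and 142 CPM with the EV guide. In MM1S it was at 10.6, 10.7 and 5.27 CPM with the IRF4 guide, against 50.2 and 44.9 CPM with the EV guide. Every IRF4 guide library lay below every EV guide library of its line in both. In OPM2 it was at 15.95, 21.6 and 19.9 CPM with the IRF4 guide, against 68.0, 73.8 and 40.0 CPM with the EV guide, whose replicate 3 was the lowest. In RPMI-8226 it was at 1.39, 2.36 and 1.42 CPM with the IRF4 guide, against 11.9, 10.2 and 10.7 CPM with the EV guide. These groups did not overlap either, and the low RPMI-8226 values rest on 29 to 58 counts per library with the IRF4 guide and 98 to 288 with the EV guide.

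The log2 fold change of KLF2 was -1.68 ± 0.27 in H929 (adjusted p = 5.15e-05), -2.34 ± 0.35 in MM1S (adjusted p = 5.58e-05), -1.65 ± 0.28 in OPM2 (adjusted p = 0.000142) and -2.64 ± 0.40 in RPMI-8226 (adjusted p = 9.28e-05). A difference of the fall between lines was not detected (adjusted p = 0.227), which does not show that the lines fell alike: the change of RPMI-8226 minus the mean of the others was -0.75 ± 0.46 (adjusted p = 0.275) and that of OPM2 0.57 ± 0.34 (adjusted p = 0.359). The difference was called without a filter on low counts (adjusted p = 5.81e-08) and with limma on deposited log2 RPKM (adjusted p = 0.0327). With the EV guide KLF2 was highest in H929 and lowest in RPMI-8226, by 3.50 on the log2 scale (adjusted p = 1.51e-08). H929 was above OPM2 by 1.04 (adjusted p = 0.00252), OPM2 was above RPMI-8226 by 2.46 (adjusted p = 1.27e-06), and MM1S was not distinguishable from OPM2 (-0.34, adjusted p = 0.378).

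KLF2 and IRF4 were both lower with the IRF4 guide in each line. Over the 23 libraries their log2 CPM had a Pearson r of 0.911, and of 0.931 once the mean of each line was subtracted. The libraries share their line and guide, so these values describe groups rather than independent samples. Across lines the levels of KLF2 and IRF4 stood in different ratios. H929 libraries with the IRF4 guide had 579 to 855 CPM of IRF4 and 25.9 to 51.3 CPM of KLF2, while MM1S libraries with the EV guide had 641 and 724 CPM of IRF4 and 44.9 and 50.2 CPM of KLF2. OPM2 libraries with the IRF4 guide had 890.2 to 1331 CPM of IRF4, more than these, and 15.95 to 21.6 CPM of KLF2. In OPM2 the fall of IRF4 was -0.66 ± 0.18 and that of KLF2 -1.65 ± 0.28.

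**Figure D3:**
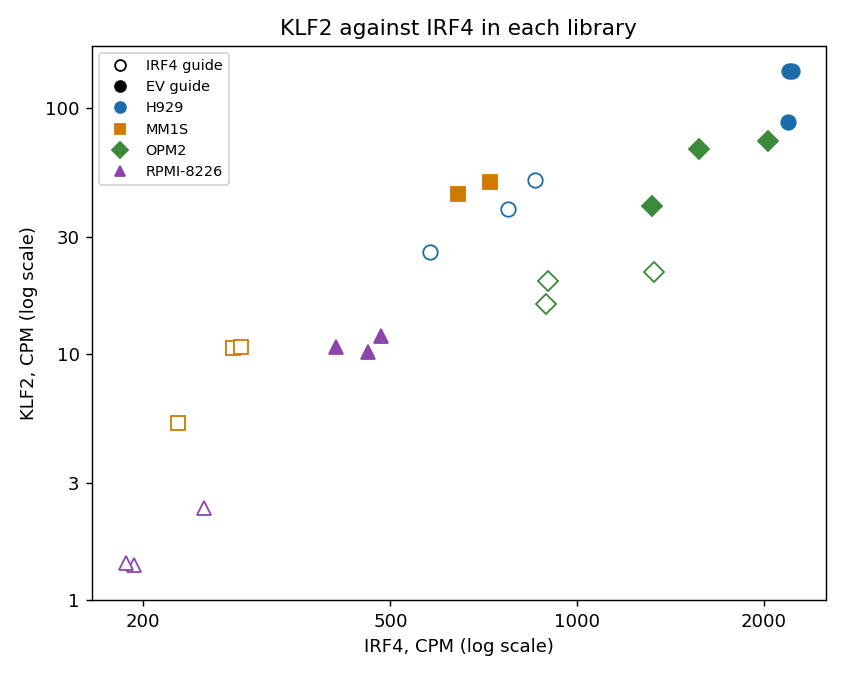
KLF2 against IRF4, both in CPM on log scales, in the 23 libraries, with open marks for the IRF4 guide and filled marks for the EV guide, and a mark shape and colour for each line. Libraries group by line and guide, with MM1S EV guide libraries within the ranges of the H929 IRF4 guide libraries, and in each line the open marks have less KLF2 than the filled ones, with the open marks of OPM2 at 890.2 to 1331 CPM of IRF4 and 15.95 to 21.6 CPM of KLF2.

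The genes whose log2 CPM followed KLF2 most closely over the 23 libraries (Pearson r) were SUB1, a transcriptional coactivator (0.956), TNFRSF17, the gene of the receptor BCMA on plasma cells (0.947), TAF1B, a subunit of the RNA polymerase I factor SL1 (0.942), PRKD2, a protein kinase D (0.936), and GPRIN1 (0.934). Once the mean of each line was subtracted, they were OXR1, tied to oxidation resistance (0.953), SRSF4, a splicing factor (0.941), PTGES3, the p23 cochaperone of HSP90 (0.934), ZNF215 (0.934) and CAV1, a caveolar coat protein (0.934). The libraries share their line and guide, so these values describe groups rather than independent samples. They were chosen for likeness to KLF2, which fell, so that they fell too is no finding. Their falls ran from 0.40 for TAF1B to 1.61 for TNFRSF17 on the log2 scale on the average.

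KLF6 (Entrez 1316, chromosome 10, 3775996 to 3785209), a broadly expressed activator described as a tumour suppressor, rose in H929 and MM1S and was not called in the other lines. KLF6 in H929 was at 67.6, 69.3 and 66.8 CPM with the IRF4 guide, against 47.3, 58.6 and 51.2 CPM with the EV guide, a change of 0.38 ± 0.09 (adjusted p = 0.000384). KLF6 in MM1S was at 297, 292 and 296 CPM with the IRF4 guide, against 230.3 and 220.5 CPM with the EV guide, a change of 0.39 ± 0.09 (adjusted p = 0.00156). The groups were separate in both lines. In OPM2 (132 to 164 CPM against 147 to 173 CPM, -0.15 ± 0.08, adjusted p = 0.135) and RPMI-8226 (64.3 to 75.0 CPM against 72.6 to 80.1 CPM, -0.11 ± 0.09, adjusted p = 0.342) they overlapped, although the fall in OPM2 was called without IRF4 replicate 2 (-0.25, adjusted p = 0.0220). The lines differed (adjusted p = 0.000164), and the average change of 0.13 ± 0.04 (adjusted p = 0.0136) was close to the median of all genes.

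The CtBP-binding repressors KLF3 and KLF12 rose in different lines. KLF3 (Entrez 51274, chromosome 4, 38664199 to 38701517) rose in MM1S and RPMI-8226. In RPMI-8226 it was at 125, 92.7 and 129.7 CPM with the IRF4 guide, against 57.9, 52.7 and 52.9 CPM with the EV guide, a change of 1.09 ± 0.11 (adjusted p = 4.68e-09), and the groups lay far apart. In MM1S it was at 110.3, 113 and 115 CPM with the IRF4 guide, against 68.1 and 70.0 CPM with the EV guide, a change of 0.71 ± 0.12 (adjusted p = 3.49e-05). Replicates there lay close together within each guide. In OPM2 it was at 92.5, 88.2 and 91.4 CPM with the IRF4 guide, against 88.6, 88.1 and 85.8 CPM with the EV guide (0.05 ± 0.10, adjusted p = 0.739). In H929, where KLF3 was lowest, it was at 7.33, 10.5 and 11.7 CPM with the IRF4 guide, against 9.54, 9.75 and 9.88 CPM with the EV guide (-0.01 ± 0.14, adjusted p = 0.983). Both pairs of groups overlapped, and the change differed between lines (adjusted p = 1.51e-06), with RPMI-8226 above the mean of the others by 0.84 ± 0.13 (adjusted p = 7.76e-06).

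KLF12 (Entrez 11278, chromosome 13, 73686089 to 74306045), known as a repressor of the AP-2 alpha gene, rose 2.07-fold in H929. It was at 57.3, 47.5 and 64.8 CPM there with the IRF4 guide, against 28.0, 23.5 and 30.2 CPM with the EV guide, a change of 1.05 ± 0.12 (adjusted p = 9.66e-09). In OPM2 it was at 95.1, 87.0 and 98.4 CPM with the IRF4 guide, against 67.3, 59.9 and 76.6 CPM with the EV guide, a change of 0.45 ± 0.11 (adjusted p = 0.00142). Both rises came with no overlap. In MM1S, at 117, 113 and 129.96 CPM with the IRF4 guide against 103 and 115 CPM with the EV guide, the groups overlapped (0.14 ± 0.13, adjusted p = 0.451). RPMI-8226 held little KLF12, at 3.49, 2.73 and 4.40 CPM with the IRF4 guide against 5.31, 5.05 and 4.06 CPM with the EV guide. These groups overlapped, and the fall of 0.49 ± 0.17 on the log2 scale (adjusted p = 0.0304) was not called in a fit of that line alone (adjusted p = 0.0730), with limma-voom (adjusted p = 0.106), or without any of 4 RPMI-8226 libraries: IRF4 replicate 1 (adjusted p = 0.0701), IRF4 replicate 2 (adjusted p = 0.176), EV replicate 1 (adjusted p = 0.132) or EV replicate 2 (adjusted p = 0.0980). The lines differed (adjusted p = 3.40e-06).

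Among the SIN3-binding repressors, KLF9, KLF10 and KLF13 rose most in H929, while KLF11 fell in MM1S and KLF16 in OPM2. KLF13 (Entrez 51621, chromosome 15, 31326835 to 31435665) is known as an activator of the chemokine gene CCL5 in T cells as well as a repressor. In H929 it was at 963, 1004 and 879 CPM with the IRF4 guide, against 445, 466 and 523 CPM with the EV guide, a change of 0.99 ± 0.07 (adjusted p = 1.02e-12). In MM1S it was at 1027, 1086 and 982 CPM with the IRF4 guide, against 684 and 647 CPM with the EV guide, a change of 0.63 ± 0.08 (adjusted p = 4.76e-07). With the IRF4 guide the lines were near each other in CPM (means of 949 in H929 and 1032 in MM1S). On the deposited values MM1S was higher, at 163 ± 13.8 RPKM against 119 ± 10.4 RPKM in H929 (SD, n = 3 each). This difference between lines was not tested. Neither line overlapped its EV guide libraries. In OPM2 it was at 477, 517 and 473 CPM with the IRF4 guide, against 412, 458 and 440.0 CPM with the EV guide (0.17 ± 0.07, adjusted p = 0.0649). These too were separate, and KLF13 was called there under 10 of the alternatives tried, among them without OPM2 EV replicate 2 (adjusted p = 0.0420) and without RPMI-8226 IRF4 replicate 3 (adjusted p = 0.0316). In RPMI-8226 it was at 396, 378 and 375 CPM with the IRF4 guide, against 394, 363 and 362 CPM with the EV guide (0.04 ± 0.07, adjusted p = 0.755), and the change differed between lines (adjusted p = 1.57e-08).

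KLF10 (Entrez 7071, chromosome 8, 102648784 to 102655725), an early gene of TGF-beta signalling, rose in H929. It was at 268, 232 and 263 CPM there with the IRF4 guide, against 125, 106 and 124 CPM with the EV guide, a change of 1.10 ± 0.09 (adjusted p = 1.27e-11). In MM1S it was at 49.5, 48.0 and 47.7 CPM with the IRF4 guide, against 44.9 and 50.8 CPM with the EV guide (0.02 ± 0.11, adjusted p = 0.959). Here the EV guide libraries lay on either side of the others. In OPM2 it was at 24.2, 29.8 and 23.4 CPM with the IRF4 guide, against 22.6, 29.8 and 26.2 CPM with the EV guide (0.00 ± 0.10). In RPMI-8226 it was at 86.4, 81.2 and 78.7 CPM with the IRF4 guide, against 68.7, 73.9 and 69.2 CPM with the EV guide (0.22 ± 0.09, adjusted p = 0.0709). The groups were separate in RPMI-8226 and overlapped in OPM2. The change in H929 exceeded the mean of the other lines by 1.02 ± 0.11 (adjusted p = 1.52e-08), and the lines differed (adjusted p = 8.27e-08).

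KLF9 (Entrez 687, chromosome 9, 70384604 to 70414657), a target of the glucocorticoid and thyroid hormone receptors, also had its largest change in H929, at a lower level. KLF9 in H929 was at 31.7, 34.5 and 30.7 CPM with the IRF4 guide, against 16.4, 17.001 and 18.96 CPM with the EV guide, a change of 0.88 ± 0.12 (adjusted p = 1.43e-07). KLF9 in MM1S was at 15.8, 13.7 and 16.3 CPM with the IRF4 guide against 13.3 and 10.5 CPM with the EV guide (0.36 ± 0.15, adjusted p = 0.0650), and in OPM2 at 22.9, 22.8 and 26.7 CPM against 19.8, 17.7 and 22.5 CPM (0.25 ± 0.11, adjusted p = 0.0706). Neither was called although the groups did not overlap. KLF9 was called in MM1S without IRF4 replicate 2 (adjusted p = 0.0431) or EV replicate 2 (adjusted p = 0.0486), and in OPM2 under 8 alternatives, among them without OPM2 EV replicate 3 (adjusted p = 0.0310) and without RPMI-8226 IRF4 replicate 3 (adjusted p = 0.0410). In RPMI-8226 it was at 31.4, 27.9 and 24.5 CPM with the IRF4 guide, below the 34.5, 32.2 and 31.8 CPM with the EV guide (-0.24 ± 0.11, adjusted p = 0.0980), and it was called there without IRF4 replicate 1 (adjusted p = 0.0426). The change differed between lines (adjusted p = 1.69e-05), with H929 above the mean of the others by 0.75 ± 0.14 (adjusted p = 7.56e-05) and RPMI-8226 below it (-0.74 ± 0.13, adjusted p = 8.98e-05).

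KLF11 (Entrez 8462, chromosome 2, 10043550 to 10054836), like KLF10 a TGF-beta-inducible repressor, was lower on the average (-0.38 ± 0.10, adjusted p = 0.00173) but among single lines was called in MM1S alone. KLF11 in MM1S was at 26.9, 26.0 and 20.1 CPM with the IRF4 guide, against 56.3 and 38.4 CPM with the EV guide, a change of -0.94 ± 0.21 (adjusted p = 0.000875). Its EV guide libraries were far apart, and without EV replicate 2 the change was -0.64 (adjusted p = 0.0628) and the difference between lines, at an adjusted p of 0.0309 with all libraries, was at 0.242. That difference was also lost with limma-voom (adjusted p = 0.0785). It was lost too without MM1S IRF4 replicate 3 (adjusted p = 0.0739), RPMI-8226 IRF4 replicate 2 (adjusted p = 0.0603), RPMI-8226 EV replicate 1 (adjusted p = 0.0577) or RPMI-8226 EV replicate 3 (adjusted p = 0.0540). KLF11 in H929 was at 9.13, 10.3 and 10.6 CPM with the IRF4 guide, against 15.2, 15.3 and 9.83 CPM with the EV guide (-0.41 ± 0.21, adjusted p = 0.0912). The EV replicate 3 alone overlapped, and without it the change was -0.64 (adjusted p = 0.0100). KLF11 was called lower in H929 under 6 of the 33 alternatives, this one among them. The others were no filter on low counts (adjusted p = 0.0109), limma on log2 RPKM (adjusted p = 0.0118) and H929 fitted alone (adjusted p = 0.0202). Replicate blocks, shared or within each line, gave the rest (adjusted p = 0.0103 and 0.00747). In OPM2 (21.2 to 28.8 CPM against 22.3 to 34.9 CPM) and RPMI-8226 (21.1 to 28.3 CPM against 21.0 to 28.7 CPM) the groups overlapped, with changes of -0.17 ± 0.18 and 0.01 ± 0.18.

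KLF16 (Entrez 83855, chromosome 19, 1852399 to 1876536), known as a repressor of dopamine receptor genes, fell in OPM2. It was at 26.8, 37.2 and 27.2 CPM there with the IRF4 guide, against 46.7, 58.0 and 44.7 CPM with the EV guide, a change of -0.70 ± 0.11 (adjusted p = 5.69e-06). KLF16 in H929 was at 47.4, 41.0 and 50.6 CPM with the IRF4 guide, against 54.1, 55.4 and 51.8 CPM with the EV guide (-0.20 ± 0.11, adjusted p = 0.115). The groups were separate in both lines, and without IRF4 replicate 3 KLF16 was called in H929 (-0.29, adjusted p = 0.0447). In MM1S (56.0 to 65.3 CPM against 54.6 and 57.8 CPM, 0.11 ± 0.13) and RPMI-8226 (56.5 to 63.4 CPM against 60.8 to 66.2 CPM, -0.10 ± 0.11) they overlapped. OPM2 lay below the mean of the other lines by -0.64 ± 0.13 (adjusted p = 0.000818), and the change differed between lines (adjusted p = 0.000886).

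The change in each line was also tested against the mean change of the other 3 lines. Above and below here refer to that mean, and not to a rise or fall in the line itself. In H929 5 members stood above it and 1 below, where 30.2% of genes were called (13.4% above and 16.8% below): KLF10 (1.02), KLF12 (1.01), KLF9 (0.75), KLF13 (0.71) and KLF6 (0.34) above and KLF3 (-0.62) below. The change of KLF6 was 0.38 in H929 and 0.39 in MM1S. In OPM2 5 were called, all below the mean of the other lines, where 12.4% of genes were called (6.39% above and 6.01% below): KLF16 (-0.64), KLF3 (-0.54), KLF10 (-0.45), KLF13 (-0.39) and KLF6 (-0.38). Of these, only KLF16 was called lower in OPM2 itself, where KLF3, KLF10 and KLF13 changed by 0.05, -0.003 and 0.17. In RPMI-8226 KLF3 stood above the others (0.84), and KLF12 (-1.03), KLF9 (-0.74), KLF13 (-0.56) and KLF6 (-0.32) below, where 25.0% of genes were called (12.6% upward and 12.3% downward). In MM1S KLF16 (0.45) and KLF6 (0.35) stood above and KLF11 (-0.75) and KLF10 (-0.42) below, where 20.1% of genes were called (10.3% upward and 9.83% downward). KLF2 was called in none of these 4 contrasts, with adjusted p from 0.275 to 0.656.

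With the EV guide the level of all 9 members differed between lines, as did that of 93.1% of genes. Between pairs of lines, 63.1% of genes were called for H929 and MM1S, 65.4% for H929 and OPM2, 75.1% for H929 and RPMI-8226, 61.4% for MM1S and OPM2, 67.7% for MM1S and RPMI-8226, and 72.9% for OPM2 and RPMI-8226. KLF12 had the widest span of the 9, with MM1S above RPMI-8226 by 4.46 on the log2 scale (adjusted p = 4.67e-21). KLF3 was lowest in H929, with differences of -3.17 to -2.49 from the other lines, and its order was OPM2, MM1S, RPMI-8226 and H929 with each neighbour called. KLF10 ran from H929 over RPMI-8226 and MM1S to OPM2, and KLF6 from MM1S over OPM2 and RPMI-8226 to H929, with each neighbour called. KLF11 was highest in MM1S and lowest in H929, with OPM2 and RPMI-8226 not distinguishable (0.18, adjusted p = 0.399), and KLF9 was highest in RPMI-8226 and lowest in MM1S, with H929 and OPM2 not distinguishable (-0.21, adjusted p = 0.126). KLF13 was highest in MM1S and lowest in RPMI-8226, with H929 and OPM2 not distinguishable (0.13, adjusted p = 0.112). KLF16 spanned the least. Its F test had an adjusted p of 0.0230, which was 0.0650 with no filter, 0.0588 with a filter of 1 CPM in 3 libraries, and 0.0577, 0.0622, 0.0764, 0.0909, 0.0639 and 0.104 without H929 IRF4 replicate 1, H929 EV replicate 3, OPM2 EV replicate 1, OPM2 EV replicate 3, RPMI-8226 IRF4 replicate 3 and RPMI-8226 EV replicate 2, and OPM2 minus RPMI-8226 was its only called pair (-0.36, adjusted p = 0.00431).

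Levels of different genes can be set side by side only per length, here as RPKM from the deposited log2 RPKM values of 16220 genes. In EV guide libraries of H929, KLF2 at 71.4 RPKM lay above 94.0% of these genes, and KLF13 at 60.2 RPKM above 92.6%. In RPMI-8226 KLF2, at 6.60 RPKM, lay above 57.8%, and KLF13, at 51.0 RPKM, above 90.6%. By these means KLF2 led the members in H929 and KLF13 in the other 3 lines, with 104 RPKM in MM1S and 58.3 RPKM in OPM2. In H929 EV replicate 1 KLF13 lay above KLF2 (log2 RPKM of 5.77 against 5.69), and the order was not tested. The lowest level was that of KLF12 in RPMI-8226, at 0.394 RPKM, above 25.2% of genes. Of the summed RPKM of the 9 members, KLF2 made up 9.20 ± 3.06% with the IRF4 guide against 35.1 ± 5.45% with the EV guide in H929 (SD, n = 3 each). In MM1S its share was 1.58 ± 0.554% (n = 3) against 11.5 ± 0.576% (n = 2), in OPM2 6.95 ± 0.764% against 19.4 ± 4.33%, and in RPMI-8226 0.581 ± 0.255% against 4.84 ± 0.325% (n = 3 each). KLF13 made up 45.8 ± 3.66% against 29.4 ± 1.39% in H929 and 53.3 ± 1.90% against 42.0 ± 0.265% in MM1S. The sum itself was 259 ± 5.32 RPKM with the IRF4 guide against 206 ± 23.4 RPKM with the EV guide in H929, 306 ± 15.2 against 247 ± 9.50 in MM1S, 171 ± 9.48 against 185 ± 16.6 in OPM2 libraries, and 146 ± 4.15 against 136 ± 1.99 in those of RPMI-8226. These shares and sums were not tested.

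**Figure D4:**
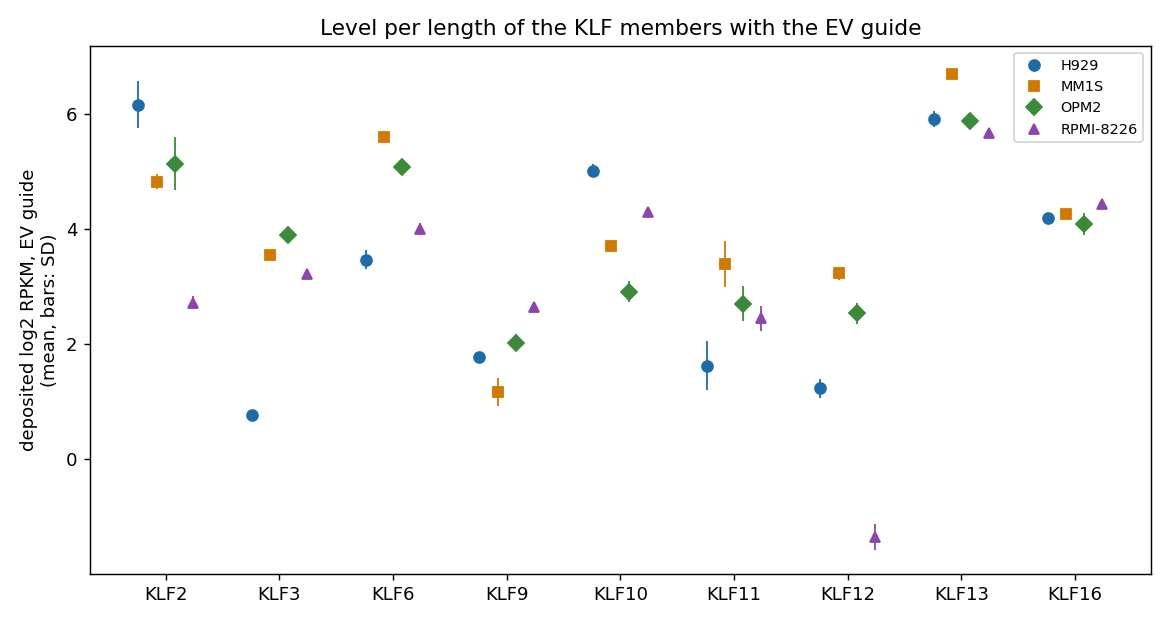
Deposited log2 RPKM (level per length) of the 9 members in EV guide libraries of each line, as the mean with bars of 1 SD (3 libraries, 2 for MM1S). KLF13 lies near the top in all 4 lines, KLF2 spans 2.72 in RPMI-8226 to 6.16 in H929, and KLF12 reaches -1.34 in RPMI-8226.

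Of the 9 other KLF genes in the table, 7 could be tested, and 3 rose (KLF4, KLF7 and KLF8) and 2 fell (KLF5 and KLF15) on the average, where 57.7% of all genes were called, 32.6% higher and 25.1% lower. KLF7, a factor of neuronal and adipose cells, was called higher in all 4 lines. In H929 it was at 4.68, 4.10 and 5.80 CPM with the IRF4 guide, against 1.20, 1.5001 and 2.84 CPM with the EV guide, and its changes were 1.39, 0.61, 0.94 and 0.36 in H929, MM1S, OPM2 and RPMI-8226 (average 0.83 ± 0.09, adjusted p = 1.32e-09). The guides did not overlap in any line. KLF8, a CtBP-binding repressor like KLF3 and KLF12, changed by 1.27 in H929, 1.90 in MM1S and 0.84 in OPM2 but had no call in RPMI-8226 (0.30, adjusted p = 0.497), with an average of 1.08 ± 0.22 (adjusted p = 9.05e-05). Its MM1S change rests on 7 to 25 counts per library with the IRF4 guide against 2 and 3 with the EV guide. KLF4, known from pluripotency, had its highest level in OPM2, at 35.8, 39.7 and 34.8 CPM with the IRF4 guide against 12.8, 13.99 and 13.8 CPM with the EV guide (1.45 ± 0.17, adjusted p = 6.00e-08). In RPMI-8226 it had 0 to 3 counts per library with either guide.

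KLF15, a glucocorticoid-induced factor of metabolism, had the largest fall in a single line among the called changes of the wider family. KLF1 in OPM2, at 0 counts with the IRF4 guide, was not called (adjusted p = 0.0557). KLF15 in H929 was at 0.160, 0.121 and 0.387 CPM with the IRF4 guide, against 2.43, 2.62 and 2.38 CPM with the EV guide, a change of -3.31 ± 0.36 (adjusted p = 3.74e-09) that rests on 1 to 8 counts per library against 21 to 61. In OPM2 it was at 10.4, 15.8 and 14.8 CPM with the IRF4 guide, against 27.3, 33.6 and 32.2 CPM with the EV guide (-1.18 ± 0.15, adjusted p = 2.21e-07). It also fell in RPMI-8226 (-0.44 ± 0.16, adjusted p = 0.0326) and was not called in MM1S (0.36, adjusted p = 0.231), and the lines differed (adjusted p = 1.91e-07). KLF5, an activator of epithelial growth, fell in H929 alone among the single lines, at 1.64, 1.93 and 3.00 CPM with the IRF4 guide against 7.70, 5.38 and 6.43 CPM with the EV guide (-1.59 ± 0.24, adjusted p = 1.56e-06). KLF1, the erythroid factor, and KLF14 had at most 18 and 8 counts in a library and were not called on the average. KLF17 and KLF18, with counts in RPMI-8226 only, were not tested.

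**Figure D5:**
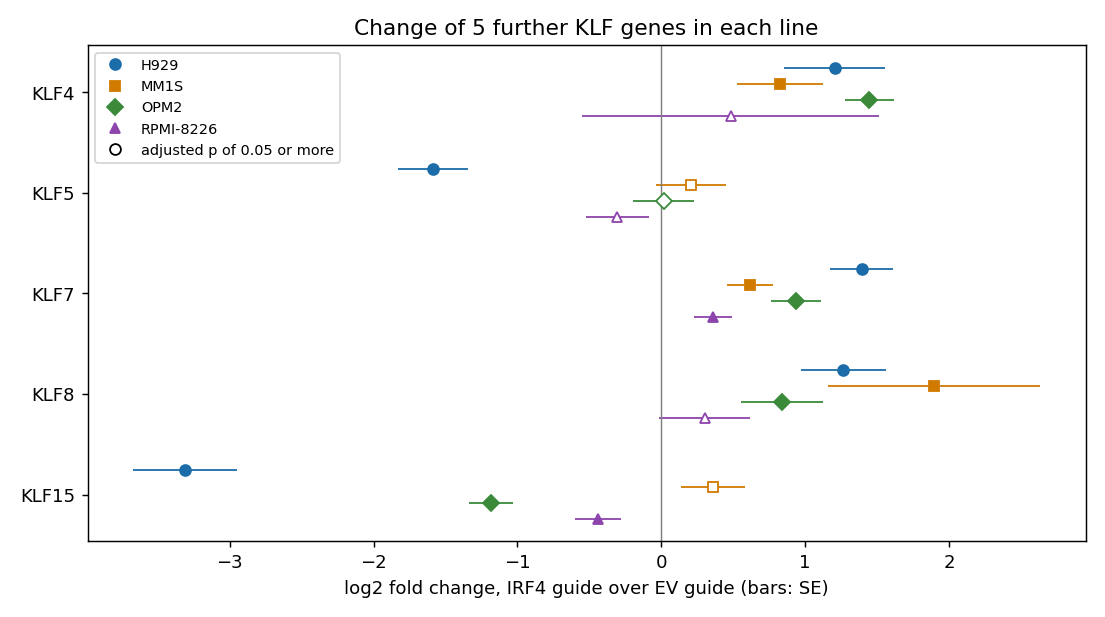
Log2 fold change, IRF4 guide against EV guide, for KLF4, KLF5, KLF7, KLF8 and KLF15 in each line, with bars of 1 SE, filled marks being calls at an adjusted p under 0.05. KLF7 is higher in all 4 lines and KLF15 lowest in H929, at -3.31.

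The genes around the members were described from lists, to be read against 32.6% of all genes called higher and 25.1% called lower on the average, with a median of 0.11. Of 12 genes upstream of KLF2, 6 rose and 1 fell on the average, with a median of 0.17. FOXO4 rose by 1.13 ± 0.09 (adjusted p = 4.85e-11), FOXO3 by 0.50 ± 0.04 (adjusted p = 3.24e-11), both forkhead factors, MEF2C, which binds MEF2 boxes, by 0.47 ± 0.04 (adjusted p = 4.59e-11) and MAP2K5, the kinase of ERK5, by 0.35 ± 0.06 (adjusted p = 7.04e-06). In single lines MEF2C was not called in MM1S (-0.02, adjusted p = 0.962), nor MAP2K5 in OPM2 or RPMI-8226 (adjusted p = 0.0613 and 0.0964). The gene that fell, named here after its value was seen, was FOXO1, at -0.20 ± 0.05 (adjusted p = 0.00265) and -0.32 in RPMI-8226 (adjusted p = 0.0213). Of the homing and vascular genes tied to KLF2, 5 of 8 could be tested, and 1 rose and 1 fell on the average. NOS3, the endothelial nitric oxide synthase, rose by 0.85 ± 0.29 (adjusted p = 0.0143), and ITGB7, the beta 7 integrin, fell by 0.37 ± 0.05 (adjusted p = 7.03e-08), with -1.05 in RPMI-8226. Neither was called in H929 or MM1S. The rest are named after their values were seen. CXCR3 was called lower in H929 (-0.67) and MM1S (-0.80) and higher in OPM2 (0.82) and RPMI-8226 (0.74). THBD fell in RPMI-8226 (-0.85, adjusted p = 0.000117) and CD69 rose in H929 (3.85, adjusted p = 0.000139), on at most 24 counts. Their averages had no usable SE (590 and 6397). S1PR1, CCR7 and CXCR5 had at most 5, 3 and 3 counts in a library and were not tested. Of 6 tested SP factors, relatives of the KLF family, SP2 rose (0.24 ± 0.06, adjusted p = 0.00134) and SP3 fell (-0.12 ± 0.04, adjusted p = 0.0244) on the average. SP2 was called in H929 and OPM2 and SP3 in MM1S alone. Named after their values were seen, SP7 rose in OPM2 (6.99 against 0 CPM, 10.04, adjusted p = 3.26e-10) and SP6 in H929 (1.82, adjusted p = 0.00477). SP7 had no counts with the EV guide, and its average had no usable SE (9857). SP4 fell in MM1S (-0.38, adjusted p = 0.0379) and rose in RPMI-8226 (0.36, adjusted p = 0.0224).

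Of the 10 genes of the CtBP corepressor, partners of KLF3, KLF8 and KLF12, 4 rose and 2 fell, and of 18 SIN3 complex genes 6 rose and 6 fell on the average, where 32.6% of all genes rose and 25.1% fell. HDAC2, a histone deacetylase in both lists, fell by 0.50 ± 0.03 (adjusted p = 2.49e-13) and its relative HDAC1 rose by 0.28 ± 0.03 (adjusted p = 2.24e-08). KDM1A, a histone demethylase, fell by 0.37 ± 0.03 (adjusted p = 5.32e-11) and ZNF217, a zinc finger protein of the CtBP complex, rose by 0.37 ± 0.05 (adjusted p = 2.92e-08). SIN3B rose by 0.58 ± 0.05 (adjusted p = 3.11e-11), and the histone-binding RBBP7 and RBBP4 fell by 0.39 ± 0.04 and 0.32 ± 0.04 (adjusted p = 4.97e-10 and 4.38e-09). The medians of both lists, 0.08 and -0.04, were below that of all genes.

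Among 17 genes of the TGF-beta pathway, which induces KLF10 and KLF11, 10 rose and 1 fell on the average, with a median of 0.33, where 32.6% of all genes rose and 25.1% fell (median 0.11). In RPMI-8226 4 rose and 3 fell, where 19.2% of all genes rose and 14.7% fell. The gene lower on the average, named after its value was seen, was SKIL, a SMAD corepressor (-0.54 ± 0.06, adjusted p = 4.08e-09). ID3 and ID2, inhibitors of bHLH factors, rose by 1.69 ± 0.07 (adjusted p = 1.60e-18) and 0.65 ± 0.06 (adjusted p = 2.20e-11), LTBP3, a TGF-beta-binding protein, by 0.93 ± 0.06 (adjusted p = 9.30e-15) and the receptor TGFBR2 by 0.65 ± 0.06 (adjusted p = 1.51e-10). KLF10 and KLF11 themselves were called in opposite directions on the average, at 0.33 ± 0.05 (adjusted p = 9.71e-07) and -0.38 ± 0.10. Of 11 glucocorticoid-induced genes, a group that KLF9 and KLF15 are known with, 8 rose and none was called lower on the average, with a median of 0.59, where 32.6% of all genes rose and 25.1% fell. In RPMI-8226 3 rose and 3 fell, where 19.2% of all genes rose and 14.7% fell. Those that fell there were PER1 (-0.47, adjusted p = 0.00248), ZFP36L2 (-0.31, adjusted p = 0.00155) and CEBPD (-1.13, adjusted p = 0.0377), and in MM1S FKBP5 fell (-0.53, adjusted p = 5.93e-05), all named after their values were seen. TXNIP, an inhibitor of thioredoxin, rose on the average by 1.25 ± 0.09 (adjusted p = 1.64e-09), and ZFP36L2, NFKBIA and PER1 by 0.59 ± 0.04, 0.54 ± 0.05 and 0.55 ± 0.06 (adjusted p = 4.99e-14, 2.90e-10 and 3.99e-09). In that company KLF9 was at 0.31 ± 0.06 (adjusted p = 6.39e-05) and KLF15 at -1.14 ± 0.12 (adjusted p = 2.03e-09). Of 17 immediate early genes, as KLF2, KLF6 and KLF10 can be, 6 rose and 3 fell on the average, with a median of 0.24, where 32.6% of all genes rose and 25.1% fell. In RPMI-8226 2 rose and 5 fell, where 19.2% of all genes rose and 14.7% fell. JUNB and ZFP36 rose by 0.69 ± 0.05 and 0.66 ± 0.05 (adjusted p = 5.22e-13 and 1.78e-12), and MYC and DUSP2 fell by 0.69 ± 0.05 and 0.82 ± 0.07 (adjusted p = 1.56e-12 and 5.89e-11).

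Genes known as targets of a single member were set beside it in each line. CCL5, which KLF13 activates in T cells, rose in OPM2 (3.12) and RPMI-8226 (1.01), where KLF13 was not called, and was not called in H929 (-0.23) or MM1S (0.36), where KLF13 rose. LGALS3, the galectin-3 gene that KLF3 represses in mice, rose in H929 (2.05), OPM2 (0.92) and RPMI-8226 (0.56), and KLF3 rose in the last of these and in MM1S. CDKN1A, the cell cycle inhibitor p21 that KLF6 can activate, rose in H929 (1.21), MM1S (2.05) and OPM2 (0.79) and fell in RPMI-8226 (-0.71), and KLF6 rose in the first pair of lines. TFAP2A, the AP-2 alpha gene that KLF12 represses, fell in H929 (-0.96), where KLF12 rose, and was not called in the other lines. These include OPM2, where KLF12 also rose (0.45), and RPMI-8226, where KLF12 was called lower (-0.49). MAOB, a target of KLF11, had at most 1 count in a library and was not tested. On the average CCL5, LGALS3 and CDKN1A rose, by 1.07 ± 0.15, 1.02 ± 0.12 and 0.84 ± 0.13 (adjusted p = 5.93e-07, 1.58e-08 and 2.04e-05), and TFAP2A was at -0.14 ± 0.10 (adjusted p = 0.234).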

How the data were processed

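RNA of 23 libraries was analysed from the table of raw counts per Entrez gene that the authors deposited, and from their deposited log2 RPKM values, 1 set per library. Per the submitters' processing notes, Subread, featureCounts and limma were used on GRCh38 (hg38), with no versions, settings or strand option. Per the labels' protocols, RNeasy Plus Mini columns gave the total RNA and a TruSeq RNA kit the libraries. Totals ran from 6907390 to 28486960 counts, which limits the precision of low genes.

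The counts went into edgeR 4.0.16 under R 4.3.3 (TMM factors of 0.914 to 1.08, filterByExpr by group, a robust quasi-likelihood fit with a mean per group over all 23 libraries). Contrasts were the IRF4 guide minus the EV guide in each line and their equal-weight average, F tests of the difference between lines and of EV levels, each line against the other 3, and pairs of lines with the EV guide, each adjusted by Benjamini-Hochberg over 16468 genes and called under 0.05. The fit was tested on simulated counts. SE is the absolute change divided by the root of F. Alternatives were other scaling factors, filters, DESeq2 1.42.0, limma 3.58.1 (voom and log2 RPKM), each line alone, the replicate number as a block, and leaving out each library. Replicate numbers are shared by the guides, but no label says that a number marks a shared culture or day. For that reason the libraries were not paired in the main fit, and the replicate block was run only as an alternative.

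The members, lists and tests were chosen with earlier results of these data known. Named are the 9 members, IRF4, the other KLF genes, up to 4 called genes per list with the smallest adjusted p on the average, genes tied to a single member, and the 5 genes most like KLF2 with and without line means (log2 CPM, prior count 2). 1 gene of the lists is not reported here. Gene coordinates and promoters are from RefSeq, GRCh38.p14.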

Additional observations from a re-analysis of the deposited data

Results flagged for a closer look

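These results drew attention because the change with the IRF4 guide differed between the 4 lines by edgeR's F test of the difference itself, where 48.0% of all genes did so. Among the members the adjusted p was 1.57e-08 for KLF13, 8.27e-08 for KLF10, 1.51e-06 for KLF3, 3.40e-06 for KLF12, 1.69e-05 for KLF9, 0.000164 for KLF6, 0.000886 for KLF16 and 0.0309 for KLF11. KLF13 changed by 0.99 in H929 and 0.04 in RPMI-8226, KLF10 by 1.10 and 0.22, and KLF12 by 1.05 and -0.49, while KLF3 stood at -0.01 in H929 and 1.09 in RPMI-8226.

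Among the other KLF genes the adjusted p was 1.91e-07 for KLF15, 0.000217 for KLF5, 0.00628 for KLF7 and 0.0272 for KLF1, the last of these on at most 18 counts in a library and with no call in a single line. IRF4 itself differed, with an adjusted p of 0.0317.

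Among genes around the members it was 5.23e-08 for MEF2C, 3.74e-07 for ITGB7, 7.29e-06 for LGALS3, 1.95e-05 for CCL5, 8.35e-05 for CDKN1A, 0.000350 for TFAP2A, 0.00294 for FOXO4 and 0.0220 for FOXO3. No group had the 4 samples that a test for a single outlying library needs.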

How the results depend on the processing

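Of 63 results on the members, 45 kept their direction and their side of the threshold under every one of the 33 alternatives run for them. All 9 members stayed called on the average wherever it was fitted (not with each line alone), and KLF2 was called in every line under all 33, with an average change of -2.22 to -2.03 (-2.17 to -2.03 with a library left out). In OPM2 the 3 calls became 5 with RLE factors, upper quartile factors, a filter of 1 CPM in 3 libraries and DESeq2, and 3 to 5 with a library left out. In RPMI-8226 they were 2 to 3 with a library left out.

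Same-numbered libraries of both guides deviated together with r of 0.0256 to 0.183 (11 pairs, 6 over 0.1), and each of the 11 correlated best with its own number, a hint from the data only. With a shared replicate block OPM2 had 5 calls, and with the replicate block within each line OPM2 had 6 and RPMI-8226 had 5, where KLF10 was called in both fits (adjusted p = 0.0442 and 0.00865).

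Directions that reversed were of changes near 0 that were not called. KLF3 in H929 was at 0.0235, 0.0604, 0.0180 and 0.0274 with RLE, upper quartile, the 1 CPM filter and DESeq2. KLF10 in OPM2 was at 0.0251, 0.0578, 0.0257, 0.0248, 0.0268, 0.0168 and 0.00249 with RLE, upper quartile, no filter, the 1 CPM filter, DESeq2, voom and the shared replicate block. KLF11 in RPMI-8226 was at -0.00721, -0.00165, -0.00583, -0.00166, -0.00960, -0.0253 and -0.0151 with RLE, no filter, the 1 CPM filter, DESeq2, voom, log2 RPKM and the line alone, and KLF10 in MM1S at -0.0383 with the line alone. With a library left out, KLF3 in H929 ran from -0.227 to 0.178, KLF10 from -0.0665 to 0.110 in MM1S and from -0.115 to 0.0910 in OPM2, and KLF11 between -0.316 and 0.00107 in OPM2 and between -0.104 and 0.159 in RPMI-8226. The cause was not tested. Precision is limited by depth for KLF2 in RPMI-8226, with 29 to 58 counts per library with the IRF4 guide, and by the 2 EV guide libraries of MM1S.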
